A study of Mus musculus with 8 samples.

Results

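The glucocorticoid receptor gene Nr3c1 and 9 genes of its hormone response were followed in 8 mouse prostate tumours. The 10 genes are Nr3c1, Hsd11b1, Tsc22d3, Fkbp5, Zbtb16, Klf9, Sgk1, Pdk4, Fam107a and Map3k6, picked by symbol out of the 24028 genes in the deposited tables, and each matched 1 row. They were chosen with their values in these tumours known, so every difference between host ages in them is given below as a description, without a test. The tumours grew from TRAMP-C2 cells, a single prostate adenocarcinoma line derived from a transgenic TRAMP mouse, after 1 M cells had been placed in the dorsolateral prostate of male C57BL/6 mice, which keep a working immune system. Aged hosts of 20 to 24 months gave 4 tumours and young hosts of 4 months gave 4, and all were taken 30 to 45 days after injection. The hour of harvest, the hormone level and any steroid received by the hosts were not given in the sources used here. Each tumour is named by its host group and mouse number.

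Glucocorticoids are steroid hormones of the adrenal gland whose blood level follows the time of day and rises under stress. The receptor waits in the cytoplasm in a complex with heat shock proteins, moves to the nucleus once it holds the hormone, and there binds a short palindromic DNA element from which it switches on genes of metabolism and of the restraint of inflammation. Other steroid receptors can bind the same kind of element, and Fkbp5, Zbtb16 and Sgk1 are known to respond to androgen as well. Several of the genes are also strongly expressed in skeletal muscle or fat, Pdk4 among them.

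The promoters of the group are shown first, because the genes share a regulator whose element can be searched for. RefSeq windows (GRCm38.p6) reaching from 250 bases before a transcript start to 50 bases after it were found for 8 of the 10 genes, 17 windows in all. The complete palindrome, AGAACA and TGTTCT with any 3 bases between them, lay in 1 of these 17 windows, against 3 of all 32851 windows (0.00913%). That window belongs to Sgk1, at a start inside the gene. The palindrome spans chr10:21993701-21993715 on GRCm38, 189 bases before that start and 965 bases before the next start. A looser core of the same palindrome, GNACA and TGTNC with any 3 bases between them, chosen after the first search, lay in 4 of the 17 windows, against 156 of the 32851 (0.475%). These 4 are the Sgk1 window, where the core sits within the complete palindrome, the Map3k6 window, and a pair of overlapping Fam107a windows that hold the same match. A single arm (AGAACA or its reverse complement TGTTCT) lay in 6 of the 17 windows, those of Fam107a, Sgk1 and Tsc22d3, against 19% of all windows, and the complete palindrome contains both arms. All motifs were read on both strands. For Sgk1 and Map3k6 the 250 bases before the start are printed, and for Fam107a, where the annotation has exons in the window, only the match with its flanks. Klf9 and Tsc22d3 are printed for comparison, since their values parted the age groups below and none of these motifs was found in the windows shown. The Tsc22d3 window is the one of its 3 without annotated exons. Capitals mark every motif match, and in Fam107a the core and a single arm overlap in 1 run of capitals. Every sequence is read on the strand of its gene.
Sgk1, chr10:21993640-21993889, plus strand: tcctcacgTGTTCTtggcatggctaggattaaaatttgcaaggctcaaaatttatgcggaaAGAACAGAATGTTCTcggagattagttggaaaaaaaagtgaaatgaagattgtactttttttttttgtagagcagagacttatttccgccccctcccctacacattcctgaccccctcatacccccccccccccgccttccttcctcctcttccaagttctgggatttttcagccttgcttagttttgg
Map3k6, chr4:133240568-133240817, plus strand: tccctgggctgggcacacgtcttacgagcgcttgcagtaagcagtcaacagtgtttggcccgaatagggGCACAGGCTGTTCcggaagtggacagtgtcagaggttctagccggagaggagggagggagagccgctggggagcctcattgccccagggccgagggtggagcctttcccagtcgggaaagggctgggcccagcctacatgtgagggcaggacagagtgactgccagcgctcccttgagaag
Fam107a, chr14:8309877-8309905, minus strand: ggtggcttGGACATGGTGTTCTgagtctc
Klf9, chr19:23140976-23141225, plus strand: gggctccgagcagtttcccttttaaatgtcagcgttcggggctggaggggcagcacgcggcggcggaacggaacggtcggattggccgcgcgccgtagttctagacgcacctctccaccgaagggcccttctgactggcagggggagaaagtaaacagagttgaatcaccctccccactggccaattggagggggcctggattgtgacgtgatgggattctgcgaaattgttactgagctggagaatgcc
Tsc22d3, chrX:140548572-140548821, minus strand: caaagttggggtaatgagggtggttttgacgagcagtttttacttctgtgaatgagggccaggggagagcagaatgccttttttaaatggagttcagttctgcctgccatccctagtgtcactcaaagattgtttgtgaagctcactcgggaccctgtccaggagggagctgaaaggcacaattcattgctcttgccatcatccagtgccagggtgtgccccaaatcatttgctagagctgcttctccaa
A match says that the letters are there, not that the receptor binds them, and elements farther from a start were not searched.

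The libraries held 27.1 to 35.7 M fragments, so that 3 fragments equal 0.084 to 0.111 CPM (fragments of a gene per M fragments of that tumour). In bulk RNA, fewer cells of a type and less RNA per cell cannot be told apart, and RNA of the TRAMP-C2 cells and RNA of host tissue are measured as 1 sum. Epithelial markers were present in every tumour, with summed levels of 131 to 632 CPM in aged tumours, against 69.8 to 419 CPM in young ones, although Epcam was at 0.7 CPM in young 43. Tumours of the same group differed in the tissue they carried. Aged 50 and young 36 held seminal vesicle transcripts (Svs2 at 17900 and 8870 CPM, against at most 13.4 CPM in the other tumours). Aged 51 was the aged tumour highest in both muscle genes Ckm and Acta1, so each age difference is given with and without it.

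Per transcript length, 6 of the genes were well expressed and 4 were scarce, as the plot of levels in FPKM (CPM per kilobase of transcript) shows. Fkbp5 had the highest median over the 8 tumours with 35.9 FPKM, followed by Sgk1 with 21.3, Nr3c1 with 12.9, Tsc22d3 with 12.6, Hsd11b1 with 9.3 and Klf9 with 8.78 FPKM. Map3k6 had 2.01 FPKM, Zbtb16 0.528, Pdk4 0.369 and Fam107a 0.114 FPKM. Most neighbours in this order kept it in 6 to 8 of the 8 tumours. The exceptions were Nr3c1 and Tsc22d3, and Zbtb16 and Pdk4, where the first stood above the second in 4 tumours only. The spread between tumours was widest in the 3 scarcest genes, with the highest tumour 1.43 times the lowest for Nr3c1 but 25 times for Zbtb16, 28.6 times for Fam107a and 46.4 times for Pdk4.

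**Figure D1:**
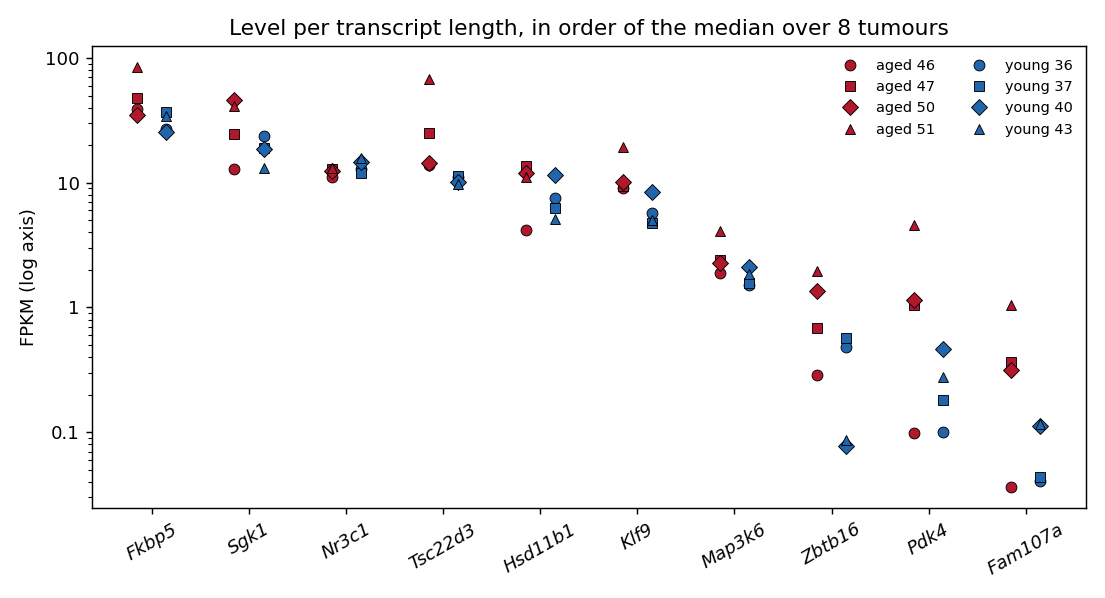
Deposited FPKM (log axis) of the 10 genes in each tumour, ordered by the median over 8 tumours, aged in red on the left and young in blue on the right of each gene. Nr3c1 spans 11.1 to 15.8 FPKM, while Pdk4 spans 0.0987 to 4.58 FPKM.

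The receptor gene varied least of the 10 between tumours. Nr3c1 (Entrez 14815, GRCm38 chromosome 18, 39410545 to 39519421) encodes the hormone-binding transcription factor on which the response depends. It stood at 73.9, 85.9, 82.3 and 88.2 CPM in aged 46, 47, 50 and 51, against 86.5, 79.2, 98.2 and 106 CPM in young 36, 37, 40 and 43. The groups overlapped, with the lowest value in aged 46 and the highest in young 43. Its log2 fold change, aged minus young, was -0.15 ± 0.12 (SE, n = 4 each), and -0.21 ± 0.12 without aged 51, and it was below 0 in all 15 alternative settings. Nr3c1 was the only gene of the 10 with a value below 0.

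The gene of the enzyme that makes active hormone inside cells overlapped between the ages, with an aged mean 1.34 times the young mean. Hsd11b1 (15483, chromosome 1, 193221640 to 193264045) turns inactive glucocorticoid back into its active form. Its level was 6.57, 21.7, 19 and 17.5 CPM in aged 46, 47, 50 and 51, against 11.9, 9.91, 18.3 and 8.06 CPM in young 36, 37, 40 and 43. Aged 46 lay below every young tumour and young 40 lay among the aged ones. As a log2 fold change this was 0.43 ± 0.36, and 0.36 ± 0.41 without aged 51. Aged 46 was also the tumour lowest in summed fibroblast markers (4670 CPM, against 7840 to 10700 CPM in the other aged and 8080 to 14900 CPM in young tumours) and in macrophage markers (1510 CPM, against 2220 to 3300 and 2300 to 3200 CPM). Their part in its low Hsd11b1 was not tested.

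Among the induced genes, Tsc22d3 and Klf9 parted the groups. Tsc22d3 (14605, chromosome X, 140539528 to 140600522) encodes a leucine zipper protein that carries much of the anti-inflammatory action of glucocorticoids. It stood at 50.5, 91.6, 52.5 and 247 CPM in aged 46, 47, 50 and 51, against 40.2, 41.4, 37 and 35.9 CPM in young 36, 37, 40 and 43. All aged tumours lay above all young ones, and aged 51 lay 2.7 times above the next tumour. The means were 110 ± 93 CPM in aged and 38.6 ± 2.6 CPM in the young group (SD, n = 4 each), with a log2 fold change of 1.55 ± 0.50. Without aged 51 the aged mean was 64.9 ± 23.2 CPM (n = 3) and the log2 fold change 0.73 ± 0.21, and the groups still did not overlap.

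Klf9 (16601, chromosome 19, 23141226 to 23168129) encodes a zinc finger repressor that glucocorticoids induce in many tissues. Its level was 29.7, 30.6, 33.1 and 63.1 CPM in aged 46, 47, 50 and 51, against 18.7, 15.5, 27.6 and 16.5 CPM in young 36, 37, 40 and 43. Here 3 aged tumours lay close together and aged 51 lay apart from them, while young 40 came nearest to the aged group. Group means were 39.1 ± 16 CPM in aged tumours, against 19.5 ± 5.5 CPM in young ones, and the log2 fold change was 1.03 ± 0.30, or 0.67 ± 0.19 without aged 51. All aged above all young was seen in 2 of the 10 genes, and in 1.45% of the 14575 genes tested. Without aged 51 it was seen in the same 2 genes, Tsc22d3 and Klf9, and in 2.42% of 14901 genes. As the genes were chosen for such values, nothing is read from the comparison of these shares.

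**Figure D2:**
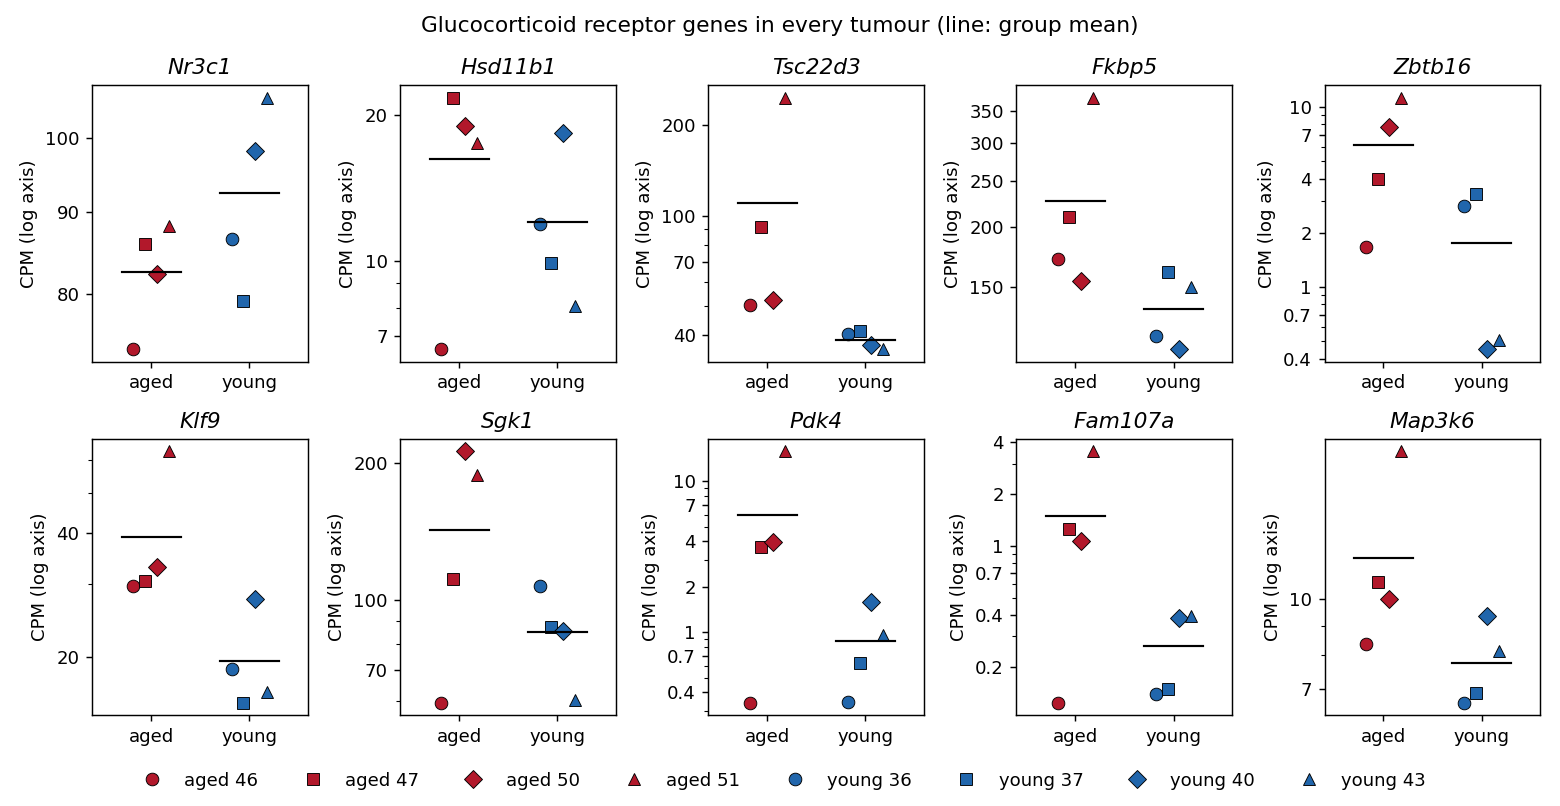
CPM (log axis, a scale of its own for each gene) in every tumour, aged in red on the left and young in blue on the right of each panel, with a line at the group mean. Aged 51 is the highest tumour for 7 of the 9 genes other than Nr3c1, and aged 46 the lowest aged tumour for 8 of them, as against 18.8% and 35.9% of all tested genes. With CPM divided by the TMM factor the counts are 7 and 6, as against 23.2% and 29.5% of all tested genes.

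The feedback and kinase genes were higher on average with overlapping groups. Fkbp5 (14229, chromosome 17, 28398753 to 28486149) encodes a co-chaperone that lowers the affinity of the receptor for its hormone. It had 171, 210, 154 and 373 CPM in aged 46, 47, 50 and 51, against 118, 161, 111 and 150 CPM in young 36, 37, 40 and 43. Of the aged tumours, only aged 50 lay below the highest young tumour, young 37. The log2 fold change was 0.77 ± 0.29, and 0.39 ± 0.18 without aged 51. Sgk1 (20393, chromosome 10, 21882184 to 21999903) encodes a kinase of ion transport and cell survival, and 1 of its windows held the complete palindrome shown above. It had 59.4, 111, 212 and 188 CPM in aged 46, 47, 50 and 51, against 107, 87, 85.5 and 60.1 CPM in young 36, 37, 40 and 43. Its highest tumour was aged 50, not aged 51, and aged 46 and young 43 were the lowest pair. On the log2 scale the fold change was 0.74 ± 0.36, and 0.55 ± 0.38 without aged 51. It was 0.35 with voom, and 0.16 without aged 50, young 36 and aged 51. Map3k6 (53608, chromosome 4, 133237979 to 133252929) encodes a stress-activated kinase. It had 8.36, 10.7, 10 and 18 CPM in aged 46, 47, 50 and 51, against 6.62, 6.88, 9.36 and 8.14 CPM in young 36, 37, 40 and 43, and aged 46 lay within the young range. Map3k6 had a log2 fold change of 0.63 ± 0.27, and 0.31 ± 0.17 without aged 51.

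The 3 scarcest genes had the steepest fold changes and the widest spread. Pdk4 (27273, chromosome 6, 5483351 to 5496278) encodes a kinase that shuts pyruvate out of the mitochondrial cycle and spares glucose. It had 0.341, 3.64, 3.96 and 15.8 CPM in aged 46, 47, 50 and 51, against 0.347, 0.628, 1.59 and 0.952 CPM in young 36, 37, 40 and 43. Aged 46 was as low as young 36, the lowest young tumour, and the other aged tumours lay above every young one. The log2 fold change was 2.80 ± 0.96, and 1.55 ± 0.78 without aged 51, whose level was 4 times that of the next tumour. Fam107a (268709, chromosome 14, 8296270 to 8317607) encodes an actin-binding protein of the stress response. It had 0.124, 1.25, 1.07 and 3.54 CPM in aged 46, 47, 50 and 51, against 0.139, 0.148, 0.381 and 0.392 CPM in young 36, 37, 40 and 43. Aged 46, young 36 and young 37 rest on 4 fragments each, close to the limit of detection, and the other aged tumours lay above every young one, as for Pdk4. Fam107a had a log2 fold change of 2.50 ± 0.86, and 1.55 ± 0.75 without aged 51. Zbtb16 (235320, chromosome 9, 48651797 to 48836225) encodes a zinc finger transcription factor. It had 1.67, 3.97, 7.77 and 11.3 CPM in aged 46, 47, 50 and 51, against 2.81, 3.29, 0.451 and 0.504 CPM in young 36, 37, 40 and 43. Aged 46 lay below a pair of young tumours, and the young group itself split into a higher and a lower pair. The log2 fold change was 1.80 ± 0.80, and 1.29 ± 0.82 without aged 51.

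Over the whole group, 9 of 10 genes had a log2 fold change above 0, against 55.3% of the 14575 genes tested, and 9 of 10 without aged 51, against 53% of 14901. The median log2 fold change of the 10 genes was 0.90, and 0.03 over all genes tested. Without aged 51 it was 0.61, against 0.01 over all genes. None of the 10 was called by edgeR (quasi-likelihood, Benjamini-Hochberg adjusted p under 0.05), which called 0 of 14575 genes (0%). An unadjusted p under 0.05 was found for 728 genes (4.99%), of which 341 (2.34% of those tested) were higher in aged tumours. DESeq2 called 0 of the 10, against 43 of 14502 genes (0.297%), and limma voom called 0 of 14575. Without aged 51 edgeR called 0 of 14901 genes (0%), and 602 (4.04%) had an unadjusted p under 0.05.

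**Figure D3:**
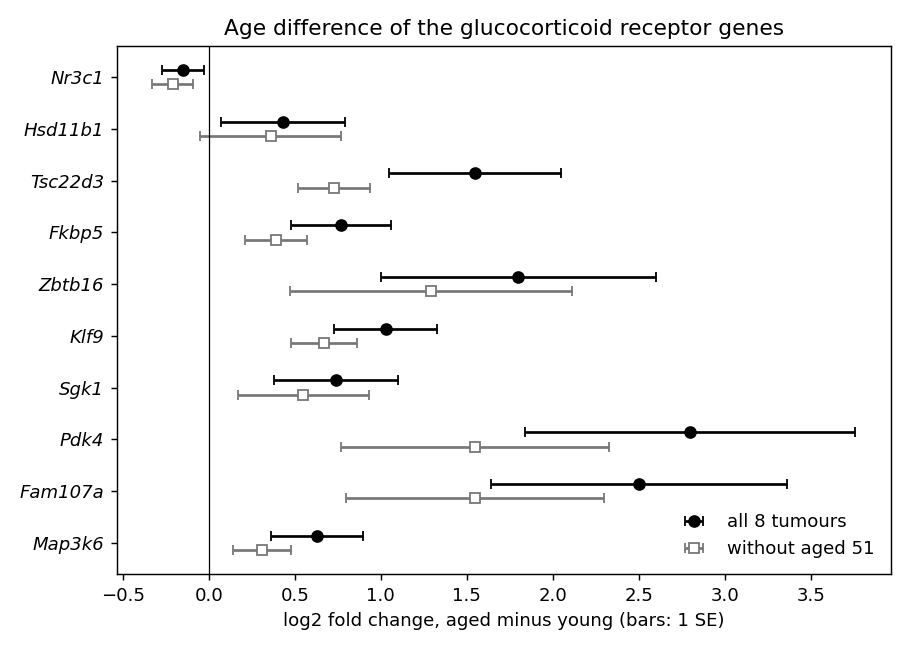
Log2 fold change, aged minus young, of the 10 genes from the fit over all genes, with bars of 1 SE, for all 8 tumours (filled circles) and without aged 51 (open squares). The values of 9 genes lie above 0 in both fits, and that of Nr3c1 below 0 (-0.15 and -0.21).

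The difference was unevenly carried by the aged tumours. Among them aged 51 was highest for 7 of the 9 genes other than Nr3c1, against 27.4% of all tested genes. Aged 47 lay above the highest young tumour for all 9, as it did for 22.3% of all tested genes. For aged 50 the count was 8 of 9 (29.9% of all genes) and for aged 51 it was 8 of 9 (25.1%), the exceptions being Fkbp5 and Hsd11b1 in turn. For aged 46 the count was 3 of 9 (17.8%), namely Tsc22d3, Fkbp5 and Klf9. With CPM divided by the TMM factors of the fit, a scale added after the first results, aged 47 lay above for 8 of 9 (17% of all genes), Sgk1 being the exception, and aged 51 for 9 of 9 (30.4%), while aged 50 and aged 46 kept 8 and 3. On that scale aged 46 was the lowest aged tumour for 6 of 9 (29.5%) in place of 8, and Tsc22d3 and Klf9 still had all aged tumours above all young ones. The mean of the 9 genes was 3.05, 4.18, 4.22 and 5.36 log2 CPM in aged 46, 47, 50 and 51, against 3.10, 3.13, 3.20 and 2.93 log2 CPM in young 36, 37, 40 and 43. The young tumours thus lay within a narrow band, which aged 46 shared. Aged 46 was also the lowest of all tumours in summed fibroblast, macrophage, smooth muscle, T cell and endothelial markers, though not in epithelial ones. Their part in its low mean was not tested. In the summed level of all 10 genes the aged tumours kept this order, with 401, 571, 576 and 1030 CPM in aged 46, 47, 50 and 51, against 392, 405, 390 and 386 CPM in young 36, 37, 40 and 43.

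Markers of other tissues moved with part of this pattern. Ckm, the creatine kinase of muscle, stood at 0.031, 0.754, 1.66 and 11.4 CPM in aged 46, 47, 50 and 51, against 0.312, 0, 3.47 and 0.168 CPM in young 36, 37, 40 and 43. Acta1, skeletal muscle actin, stood at 50.8 CPM in aged 51, at 8.39 to 16.8 CPM in the other aged tumours and at 9.74 to 27.6 CPM in young tumours, with young 40 highest. Of 18 skeletal muscle genes 11 were tested, and 11 were higher in aged tumours with all tumours but 5 of 12 without aged 51. Their summed level was 68.3 to 249 CPM in aged tumours, against 71.5 to 148 CPM in young ones. Without Eno3, which reached 192 CPM in aged 46, it was 205 CPM in aged 51, 12.3 to 28.2 CPM in the other aged tumours and 14.3 to 49.7 CPM in young tumours. The myosin gene Myh4 was at 0 in all aged tumours but aged 51. Aged 47 and aged 50 lay below young 40, the young tumour highest in both Ckm and Acta1, in these 2 genes, and above it in all 9 genes. How much of the level in aged 51, or in the other aged tumours, comes from muscle was not tested. Trim63, a muscle ubiquitin ligase that glucocorticoids induce, stood at 4.07 CPM in aged 51 and at most 0.168 CPM in the other tumours. Fbxo32, another gene that glucocorticoids induce, did not share this. It stood at 23.9 CPM in aged 51, below aged 50 (32.3 CPM) and young 37 (27.9 CPM).

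The summed level of fat markers was also highest in aged 51, mostly through 1 gene. The 8 adipocyte markers summed to 51.5, 178, 179 and 533 CPM in aged 46, 47, 50 and 51, against 42.5, 229, 92.2 and 222 CPM in young 36, 37, 40 and 43. Aged 47 and aged 50 lay below young 37 and young 43 in this sum. In the mean of the 9 genes they lay above them (4.18 and 4.22 log2 CPM in the aged pair, against 3.13 and 2.93 in the young pair). Fabp4, a fatty acid carrier that macrophages and endothelium also express, made up 398 CPM of the sum in aged 51. Without it the other 7 markers summed to 23.8, 84.1, 119 and 135 CPM in aged 46, 47, 50 and 51, against 11.3, 72.5, 52.4 and 119 CPM in young 36, 37, 40 and 43. Aged 47 then lay above young 37, aged 50 equalled young 43, and of the 8 markers 4 were highest in aged 51, 3 in young 43 and 1 in aged 50. Endothelial markers summed to 187 to 340 CPM in aged tumours, against 226 to 294 CPM in young ones, with aged 46 lowest and aged 51 highest. Their part in the result, like that of fat, was not tested.

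**Figure D4:**
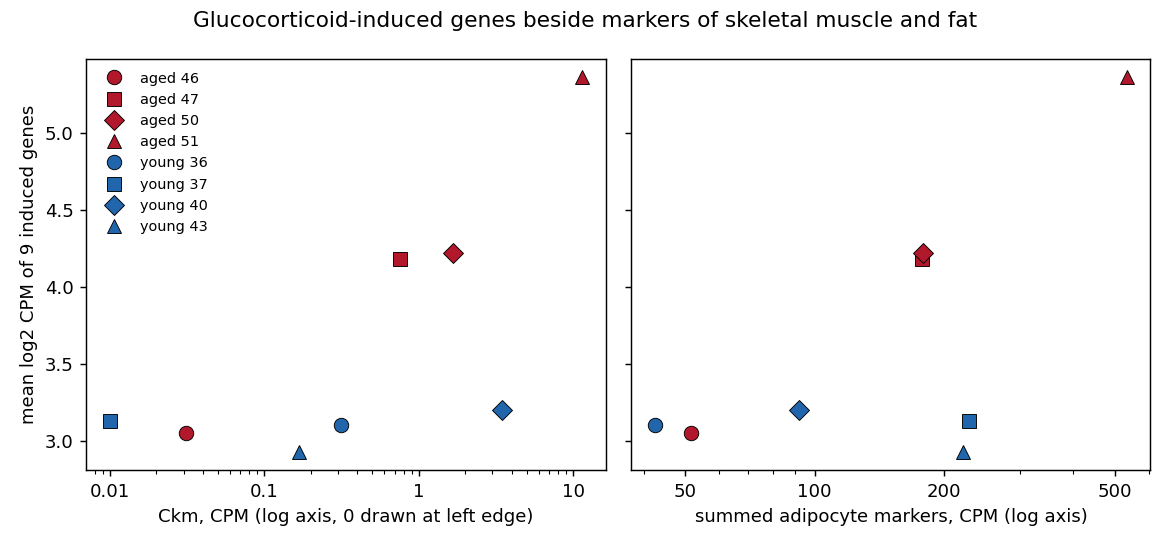
Mean log2 CPM of the 9 genes other than Nr3c1 (vertical) beside Ckm (left, CPM, log axis, with young 37 at 0 drawn at the left edge) and the summed adipocyte markers (right, CPM, log axis), 1 point per tumour. Aged 51 is highest on all 3 measures. Aged 47 and aged 50 lie above all young tumours in the 9 genes, and within the young range in Ckm and in the adipocyte sum. Without Fabp4 the adipocyte sum is 84.1 and 119 CPM in aged 47 and aged 50, against 11.3 to 119 CPM in young tumours. The part of muscle and fat was not tested.

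Hormone handling genes other than Hsd11b1 were scarce or overlapped between ages. Of 10 listed genes 5 were tested, 4 with a value above 0 and 0 called by edgeR or DESeq2. Over all genes edgeR called 0% and DESeq2 0.297%, the shares to set beside this count and those of the lists below. H6pd, which supplies the cofactor of the Hsd11b1 enzyme, stood at 57.9 to 126 CPM in aged tumours, against 93.7 to 133 CPM in young ones, with aged 46 again lowest. Hsd11b2, the opposing enzyme that inactivates the hormone, stood at 0.124 to 2.43 CPM in aged tumours, against 0.0693 to 0.554 CPM in young ones and was too low to be tested with all tumours. Nr3c2, the mineralocorticoid receptor, which also binds glucocorticoids, had 0.827 to 3.65 CPM in aged tumours, against 0.42 to 1.49 CPM in young ones. The hormone exporter gene Abcb1a had 9.85 to 19.8 CPM in aged tumours, against 7.32 to 10.6 CPM in young ones, a log2 fold change of 0.68 ± 0.27. Star, the cholesterol carrier of steroid synthesis, had 0.45 ± 0.28, while the adrenal synthesis genes Cyp11a1, Cyp11b1 and Cyp21a1 stayed below 1 CPM in every tumour. The median of this list was 0.45, and 0.71 without young 40.

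The chaperones of the receptor showed no common direction, and the count for its coregulators turned on aged 51. Of 8 chaperone genes 4 were above 0 and 4 below, with a median of -0.01 and 0 called by edgeR or DESeq2. For the constitutive heat shock gene Hspa8 the value was -0.24 ± 0.17, and for Fkbp4, whose product competes with that of Fkbp5, it was -0.29 ± 0.22. Fkbp4 stood at 493, 365, 352 and 218 CPM in aged 46, 47, 50 and 51, against 424, 473, 408 and 458 CPM in young 36, 37, 40 and 43. It was lowest in aged 51, where Fkbp5 was highest. This was not particular to Fkbp4, since Hspa8 (1920 CPM) and Stip1 (202 CPM) were also lowest in aged 51, while Ptges3 (255 CPM) was highest there. Without aged 46 only 1 of the 8 chaperones was above 0. Of 11 coregulators 10 were above 0, with a median of 0.09 and 0 called, but 5 of 11 without aged 51. Hexim1, an inhibitor of transcription elongation, had 0.22 ± 0.12. In CPM all its aged tumours lay above all young ones (39.6 to 44.7 CPM in aged tumours, against 32.3 to 39 CPM in young ones). This was seen in 1 of the 11 coregulators, and in 1.45% of all genes tested. With CPM divided by the TMM factors (1.04 in aged 50, 0.999 in young 37), aged 50 lay below young 37 and the groups overlapped. Nrip1, a nuclear receptor corepressor, had 0.35 ± 0.19.

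A wider list of genes known to be induced by glucocorticoids, 38 besides the 10, had 34 tested members, of which 29 were higher and 5 lower in aged tumours. By edgeR 0 of the 34 passed, against 0 of 14575 genes. By DESeq2 1 passed, Cd163, with values higher in aged tumours, against 43 of 14502 genes (0.297%), of which 17 (0.117% of those tested) were higher in aged tumours. The median log2 fold change of the list was 0.43, against 0.03 over all genes tested, and 0.29 without aged 51, where 24 were higher and 10 lower. Of the 34, 1 had all aged tumours above all young ones and 1 had all aged below, against 1.45% and 1.95% of all genes tested. The list was written with earlier results of these tumours known and is no independent evidence of direction.

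Within that list, the clock gene Per1 and the phosphatase gene Dusp1, both prompt targets of the receptor, were highest in aged 51. The list had no common highest tumour, since Mt1, Mt2 and Cd163 were highest in aged 50. Per1 stood at 48.2, 95.1, 64.6 and 151 CPM in aged 46, 47, 50 and 51, against 36.1, 49.3, 39.4 and 66.4 CPM in young 36, 37, 40 and 43, with overlap. Its log2 fold change was 0.93 ± 0.35, and 0.52 ± 0.26 without aged 51. Dusp1 had 71.2 CPM in aged 51, 18.1 to 31.1 CPM in the other aged tumours and 11.2 to 25.1 CPM in young tumours, and its value of 0.94 ± 0.47 went to 0.27 ± 0.29 without aged 51. The steroid sulfate carrier gene Slc10a6 had 0.403, 3.02, 2.19 and 6.52 CPM in aged 46, 47, 50 and 51, against 0.616 to 1.11 CPM in young tumours. Its level was again lowest in aged 46 and highest in aged 51 (1.90 ± 0.69, and 1.14 ± 0.60 without aged 51). Mertk, a receptor for dying cells, had 0.68 ± 0.24, and 0.39 ± 0.13 without aged 51.

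Cd163, a haptoglobin-hemoglobin scavenger receptor of macrophages, stood at 10.4, 15, 24.9 and 21.2 CPM in aged 46, 47, 50 and 51, against 1.66, 5.84, 8.04 and 4.09 CPM in young 36, 37, 40 and 43. All aged tumours lay above all young ones (1.89 ± 0.44, edgeR adjusted p = 0.83, DESeq2 adjusted p = 0.011), and the order within the aged group was not that of the 9 genes. Of 7 general macrophage markers, 1 was above 0 and 6 below. Bcl6, a transcriptional repressor of lymphocytes and macrophages, lay lower in all aged tumours, at 12.2 to 22.8 CPM, than in all young ones, at 23.3 to 32.5 CPM (-0.71 ± 0.19, edgeR adjusted p = 0.92). The abundant members of the list overlapped between groups. Anxa1, a mediator of resolving inflammation, had 0.48 ± 0.24, the metallothionein genes Mt1 and Mt2 0.43 ± 0.34 and 0.50 ± 0.41, and Txnip, a thioredoxin inhibitor, 0.51 ± 0.29.

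**Figure D5:**
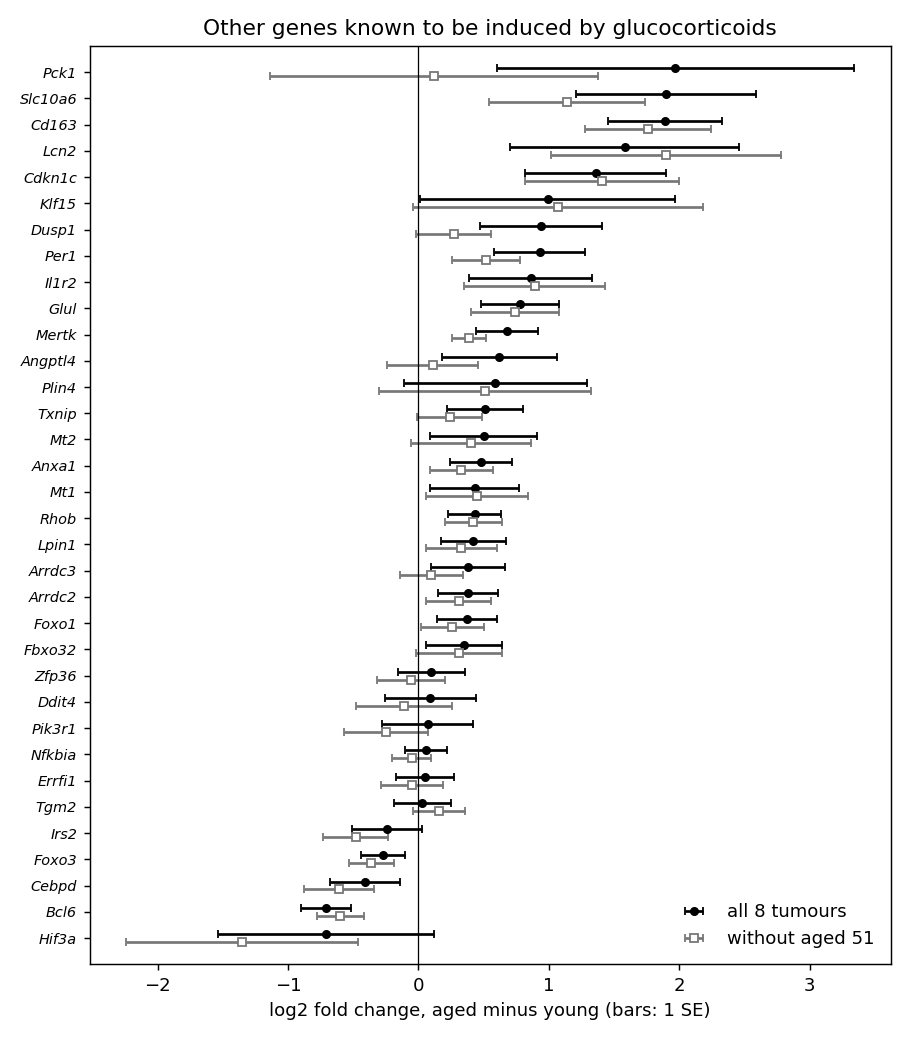
Log2 fold change, aged minus young, of the 34 tested genes of the wider induced list, with bars of 1 SE, for all 8 tumours (filled circles) and without aged 51 (open squares). With all tumours 29 values lie above 0, and without aged 51 24 do.

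Genes that glucocorticoids are known to repress had mostly negative values. Of 14 listed genes 12 were tested, 4 above 0 and 8 below, with 0 called by edgeR or DESeq2. Of all genes tested, 55.3% were above 0. The median of the list was -0.51, or -0.22 without aged 51, against 0.03 and 0.01 over all genes. Its summed level overlapped, at 236 to 479 CPM in aged tumours, against 317 to 534 CPM in young ones. This list too was written with earlier results of these tumours known and is no independent evidence of direction. Il1b, the inflammatory cytokine, stood at 4.21, 13.6, 8.7 and 1.75 CPM in aged 46, 47, 50 and 51, against 21.4, 17.2, 35.2 and 5.01 CPM in young 36, 37, 40 and 43 (-1.49 ± 0.66). It was lowest in aged 51, and young 43 lay within the aged range. Of the macrophage markers, Adgre1 and Cd68 were also lowest in aged 51 and Mrc1 was highest there. The rest of that list, Csf1r, C1qa, C1qb and C1qc, was lowest in aged 46 and not in aged 51. The part of macrophages in the low Il1b of aged 51 was not tested. Vcam1, of the same repressed list, was highest in aged 51 (342 CPM). The collagenase gene Mmp13 had 4.88 to 15.1 CPM in aged tumours, against 4.73 to 64.4 CPM in young ones (-1.91 ± 0.67), with young 43 again apart from its group. Without young 43, 2 of the 12 were above 0, and the median was -0.28 without young 40.

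Of androgen-driven prostate genes 6 were measured, and their summed level was highest in aged 50 (4950 CPM), young 37 (7560 CPM) and young 36 (1110 CPM), with 203 CPM in aged 51. The secretory prostate gene Msmb reached 497 CPM in aged 50 and 31.2 CPM in young 36, and at most 4.76 CPM elsewhere, and Sbp, a prostate secretory protein, reached 7520 CPM in young 37 and at most 15.9 CPM elsewhere. Of the 6 genes 5 were above 0 with all tumours but 1 without aged 50, and 0 were called by edgeR or DESeq2. Their median log2 fold change was 1.99 with all tumours, -1.52 without aged 50 and 5.08 without young 36.

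The genes whose log2 CPM most resembled the mean standardised profile of the 9 genes over the 8 tumours, among 11355 genes with a mean of at least 2 log2 CPM, were Pnpla2 (Pearson r = 0.975), Heca (0.974), Sult1a1 (0.972), Cd300lg (0.97) and Zfp943 (0.969). Pnpla2, the lipase that opens fat stores, stood at 31.6, 51, 50.6 and 114 CPM in aged 46, 47, 50 and 51, against 27.7 to 34.9 CPM in young tumours. Sult1a1, a sulfotransferase, stood at 3.22, 12.4, 9.09 and 29.6 CPM in aged 46, 47, 50 and 51, against 1.48 to 4.05 CPM in young tumours. Both thus shared the high aged 51 and the low aged 46. For Nr3c1 the closest genes were Slc1a4 (0.972), Pcdh17 (0.953), Ahi1 (0.951), Hdac4 (0.947) and Fam168a (0.946), and none of these was among the 5 nearest to the other 9 genes. These correlations are a description over 8 tumours that share libraries, picked as the highest of many.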

How the data were processed

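RNA was measured in 8 tumours, 4 per host age, each from a mouse of its own. Per the labels, mRNA libraries were made from 1 µg of RNA with a stranded TruSeq kit and read as 50 bp paired ends. Programs in the submitters' processing notes are bcl2fastq, TopHat2 2.0.12 and Picard 2.7.1, with the build GRCm38 (mm10). Neither the counting program nor its gene models or strand option were given in the sources used here. No exon of the 10 genes overlaps an exon of another gene in GENCODE vM21. Per the file headers, the authors deposited a fragment count, FPM and FPKM for each gene. The deposited FPM is the count over the total of the tumour and is called CPM here. The deposited FPKM is that CPM per kilobase of the listed transcript length and was used only to compare levels between genes.

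Counts of all genes were fitted with edgeR 4.0.16 in R 4.3.3 (filterByExpr with a minimum count of 10 and a minimum total of 15, TMM factors, robust quasi-likelihood fit, no term besides host age). A log2 fold change is aged minus young, and a standard error is the fold change over the square root of its F statistic. Log2 CPM levels have a prior count of 2. p-values were adjusted by Benjamini-Hochberg over all genes tested, with a threshold of 0.05. They set the difference between host ages against the spread between tumours of a group. The alternatives were DESeq2 1.42.0, limma 3.58.1 voom with sample weights, other scalings, no filter, each tumour left out, and the exclusion of tumours with gland or muscle transcripts. Added after seeing the data were ranks of tumours on CPM over the TMM factor and the adipocyte sum without Fabp4. The 10 genes, the gene lists and the alternatives were chosen with earlier results of these data known. Besides the 10 genes and 8 fixed ones, the text names the 2 genes with the smallest p of each pathway list, 4 of the wider induced list by p and 4 by FPKM, and the 5 nearest in profile. Epcam, Eno3, Myh4, Trim63, Fbxo32, Vcam1, Adgre1, Cd68, Mrc1, Csf1r, C1qa, C1qb, C1qc, Stip1, Ptges3 and the adrenal synthesis genes were named after their values were seen. A gene of the androgen list is not reported here, and the list was counted without it. No library was a copy of another (chi-square per degree of freedom of at least 42.6 between any 2). No interval of counting error is given. Each ± after a mean in CPM is the SD between tumours, and each ± after a log2 fold change is the standard error of the fit.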

Additional observations from a re-analysis of the deposited data

Results flagged for a closer look

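A highest or lowest tumour far from the rest of its group was looked for in 17 named genes, 34 groups of 4 tumours. Chance alone flags about 1 in 20 such groups when genes are picked without regard to their values. The 10 genes were chosen with their values known, so that rate does not hold for them. Such a tumour was found in 2 groups, both of genes among the 10, and nothing is read from this number. Hsd11b1 in aged 46 stood at 2.81 log2 CPM, far below the other aged tumours. Klf9 in aged 51 stood at 6.05 log2 CPM, far above the other aged tumours, and its aged and young groups did not overlap with or without that tumour.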

How the results depend on the processing

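No paired analysis was possible because the tumours of the 2 groups share no mouse number. Over 15 alternative settings, the number of the 10 genes above 0 was 9 each time, and their median log2 fold change ran between 0.56 and 1.06 (0.61 to 1.06 with each tumour left out). With prior counts of 0.5 and 5 the mean difference of the 10 genes, 0.99 log2 CPM, ran between 0.95 and 1.01. Genes called numbered 43 by DESeq2 and 0 in the other settings, each tumour left out included. With each tumour left out, Tsc22d3 had 0.73 to 1.79, Pdk4 1.55 to 3.22 and Fam107a 1.55 to 2.88, the lowest in each case without aged 51. Without aged 50, young 36 and aged 51, Pdk4 had 0.90, Fam107a 1.12 and Sgk1 0.16, and voom gave Sgk1 0.35. The wider induced list stayed positive in its median, between 0.19 and 0.52, with 22 to 30 genes above 0. The repressed list stayed negative in its median (-0.78 to -0.20), with 2 to 4 genes above 0 when each tumour was left out. The other lists depended on the setting. Chaperones above 0 numbered 2 with library size scaling, 1 with voom and 1 to 5 with each tumour left out. Coregulators above 0 numbered 5 with voom, 4 without aged 50, young 36 and aged 51, and 5 to 11 with each tumour left out. The androgen-driven genes had 3 above 0 with voom, and 1 to 6, with a median of -1.52 to 5.08, when each tumour was left out. Hormone handling had a median of 0.66 and 8 genes above 0 without a filter, and a median of 0.31 to 0.71 when each tumour was left out. The cause of these shifts was not tested. Depth limits Fam107a most, since 4 fragments carry its lowest tumours.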
